A study of Rattus norvegicus with 36 samples.

Results

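Hexim1 and the factors it works with were followed in rat liver across 5 doses of a flame retardant: Hexim1, the kinase Cdk9, the cyclins Ccnt1 and Ccnt2, and the RNA-binding protein Larp7. The members were all probe sets (groups of short probes that together report 1 transcript) that the array annotation assigns to these 5 genes. There were 9 such probe sets, for 4 of the 5 genes, among 31042 tested. Hexim1 (probe set 1374846_at) was chosen by its fall at 54.1 mg/kg, measured on these arrays, so the values that set Hexim1 at 54.1 mg/kg against vehicle are a description and carry no test. Ccnt1 is paired with no probe set in the annotation used here and was not analysed.

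Male Harlan Sprague Dawley rats, 7 weeks old at the start, received HCDBCO (hexachlorocyclopentadienyl-dibromocyclooctane), a chlorinated and brominated flame retardant, in corn oil by gavage on 5 consecutive days. The groups were vehicle (corn oil with no HCDBCO, 0 mg/kg) the 3 lowest doses of 0.05, 0.54 and 5.41 mg/kg per day, and the 2 highest of 54.1 and 541 mg/kg per day, all given in the same volume of oil, with 6 liver samples each and 36 in all. RNA from the left lobe, taken 1 day after the last dose, was hybridised to 1-colour Affymetrix arrays that read transcripts near their end. The labels give no animal numbers, so a p-value here speaks only of spread among these samples, which may be technical. Precision is set by 6 arrays per group. The design compares vehicle with each dose at a false discovery rate (FDR) of 5%.

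Values are log2 array levels. A difference of 1 is a doubling, and levels of different probe sets are not set against each other. The hepatocyte markers Alb, Ttr and Serpina1 lay at 14.72, 14.26 and 14.14 near the top of the array's range, as the liver label requires. Array medians ran from 5.06 to 5.16. The array of replicate 5 at 54.1 mg/kg stood apart in its distribution, with a lower quartile of 3.79 and an upper quartile of 6.94. The tissue holds several cell types, so fewer cells of a type and less RNA per cell cannot be told apart.

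As background, RNA polymerase II halts shortly after the start of many genes and waits for a signal to go on. The signal comes from P-TEFb, the kinase Cdk9 bound to a T-type cyclin, which phosphorylates the polymerase and the pausing factors. Part of the cell's P-TEFb is held in reserve on the small nuclear RNA 7SK, where Hexim1 or its paralog Hexim2 inhibits the kinase, Larp7 stabilises the RNA and Mepce caps it. Hexim1 was named for its induction by hexamethylene bisacetamide, a compound that makes cultured cells differentiate, and in liver as elsewhere the release of P-TEFb lets cells start fast transcriptional responses.

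The RefSeq promoter of Hexim1 (build GRCr8, chr10:88562789-88562888, plus strand) is shown because this gene had the lowest values of the members at 54.1 mg/kg relative to vehicle. These are the 100 bases before its start, 5′ to 3′, and the capitals mark TATATAA, which resembles a TATA box and whose first base lies 57 bases before the start.

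Hexim1 promoter: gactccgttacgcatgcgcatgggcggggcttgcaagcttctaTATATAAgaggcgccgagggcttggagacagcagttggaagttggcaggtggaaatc

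This motif, on either strand, was found in the 250 bases before the start in 3.42% of the 33469 promoters of the table. The match is a description of the letters and not of a site in use. In RefSeq order Hexim1 lies on chromosome 10 between Acbd4 and its paralog Hexim2.

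Hexim1, the inhibitor of P-TEFb, was at its highest in vehicle liver and at its lowest at 54.1 mg/kg, and it was not lowest at the highest dose. In the 6 vehicle samples its level was 9.78 at the lowest, 9.93 at the median and 10.09 at the highest, with a mean of 9.93 ± 0.122 (SD, n = 6). At 54.1 mg/kg the lowest, median and highest samples were 9.25, 9.48 and 9.61 (mean 9.44 ± 0.139, SD, n = 6). At 541 mg/kg they were 9.59, 9.64 and 9.81 (mean 9.66 ± 0.087, SD, n = 6). The vehicle and 54.1 mg/kg samples, by which Hexim1 was chosen, did not overlap. Of the 6 samples at 54.1 mg/kg, 5 lay below every sample at 541 mg/kg. The share of all probe sets with groups set apart in this way was not counted. In a comparison of these 2 doses 0.00322% of all probe sets passed limma's FDR, and Hexim1 did not.

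The 3 lowest doses lay between these groups and overlapped with each other. At 0.05 mg/kg Hexim1 ran from 9.54 through a median of 9.77 to 9.96 (mean 9.75 ± 0.151, SD, n = 6). At 0.54 mg/kg it ran from 9.56 through 9.76 to 9.80 (mean 9.73 ± 0.093, SD, n = 6). At 5.41 mg/kg it ran from 9.56 through 9.66 to 9.91 (mean 9.69 ± 0.138, SD, n = 6). From high to low the means were thus ordered vehicle, 0.05, 0.54, 5.41, 541 and 54.1 mg/kg, and the 4 neighbouring groups from 0.05 to 541 mg/kg were not shown to differ beyond their spread (limma's F-test over these 4, adjusted p = 1).

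Counts of single samples were taken from the same values and are no second evidence of this order. Of the 30 treated samples, 29 lay below the vehicle mean and 21 below the lowest vehicle sample. The share below the lowest vehicle sample was 3 of 6 at 0.05 mg/kg, 3 of 6 at 0.54, 4 of 6 at 5.41, 6 of 6 at 54.1 and 5 of 6 at 541 mg/kg. The 6 lowest of all 36 samples included 5 from 54.1 mg/kg, and the 6 highest included 4 from vehicle. These counts share the vehicle samples by which Hexim1 was chosen, and those at 54.1 mg/kg share both groups of the choice. The like shares over all probe sets were not counted.

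**Figure D1:**
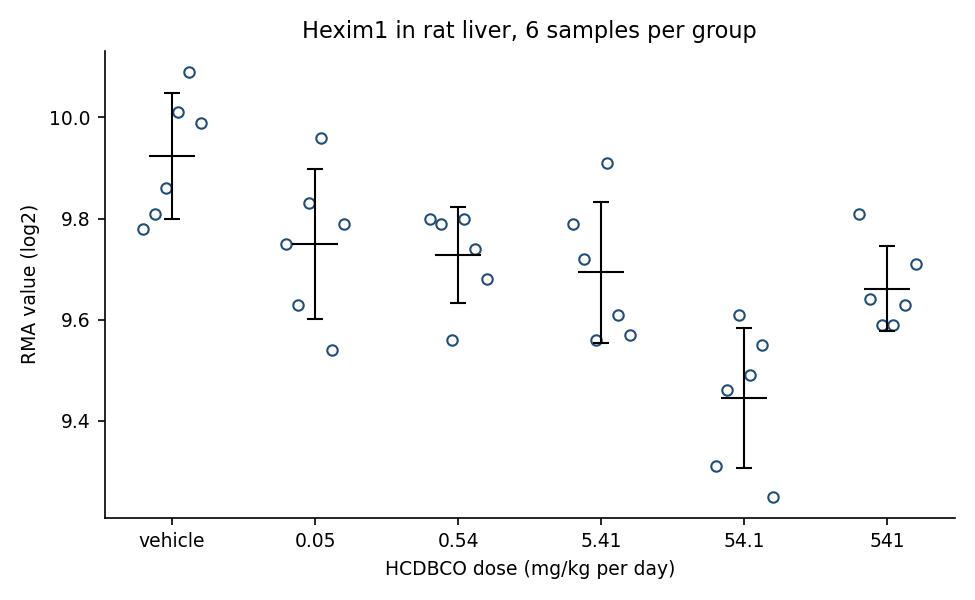
Hexim1 level (RMA value, log2) in each liver sample by dose of HCDBCO, with 6 samples per group; points are samples, the wide bar is the group mean and the error bar 1 SD. The 54.1 mg/kg samples sit between 9.25 and 9.61, all below the lowest vehicle sample at 9.78, and the 541 mg/kg samples sit between 9.59 and 9.81.

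As a description of the contrast by which it was chosen, Hexim1 was lower by 1.40-fold at 54.1 mg/kg, a log2 difference of -0.48 (95% interval -0.63 to -0.33). By these same values it stood first of 31042 probe sets by p-value, and place 5 by size among the 10 (0.0322% of all) that passed the FDR as lower. The interval and both places come from the values of the choice, so they are no evidence for the fall. In that contrast 23 probe sets, 0.0741% of those tested, passed limma's FDR of 5%, and the 1 member among them is the one the choice put there. Without replicate 5 of that dose the difference was -0.50.

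At the other doses the differences from vehicle were -0.18 at 0.05 mg/kg, -0.20 at 0.54 mg/kg and -0.23 at 5.41 mg/kg, each with a standard error (SE) of 0.07. At 541 mg/kg the difference was -0.26 (95% interval -0.41 to -0.12), or 1.20-fold lower, and did not pass limma's FDR (adjusted p = 0.147). All 4 use the vehicle samples from which Hexim1 was chosen, whose values were the highest of the 6 groups, so they are not independent of the choice.

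The differences among the other 4 groups use neither the vehicle nor the 54.1 mg/kg samples, although their SEs and p-values take the spread from all 36 samples. Against the mean of the 3 lowest doses, Hexim1 at 541 mg/kg differed by -0.06 ± 0.06 (SE), with a 95% interval of -0.18 to 0.06 and limma's adjusted p = 0.855. With only those 4 groups fitted, so that no sample of the choice enters, it was -0.06 ± 0.06 (SE, limma's adjusted p = 0.847). In this comparison 84 probe sets, 0.271% of those tested, passed, and no member did. Limma's F-test over the 4 dose groups 0.05, 0.54, 5.41 and 541 mg/kg passed 27 probe sets, 0.087%, and no member (Hexim1 adjusted p = 1, unadjusted p = 0.625). Against the same 3 doses the 54.1 mg/kg samples were at -0.28, given as a description (95% interval -0.40 to -0.16). Of these 6 samples, 4 lay below every sample of those doses, and the like share over all probe sets was not counted. In that comparison 0.0161% of all probe sets passed limma's FDR, and Hexim1 did not.

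**Figure D2:**
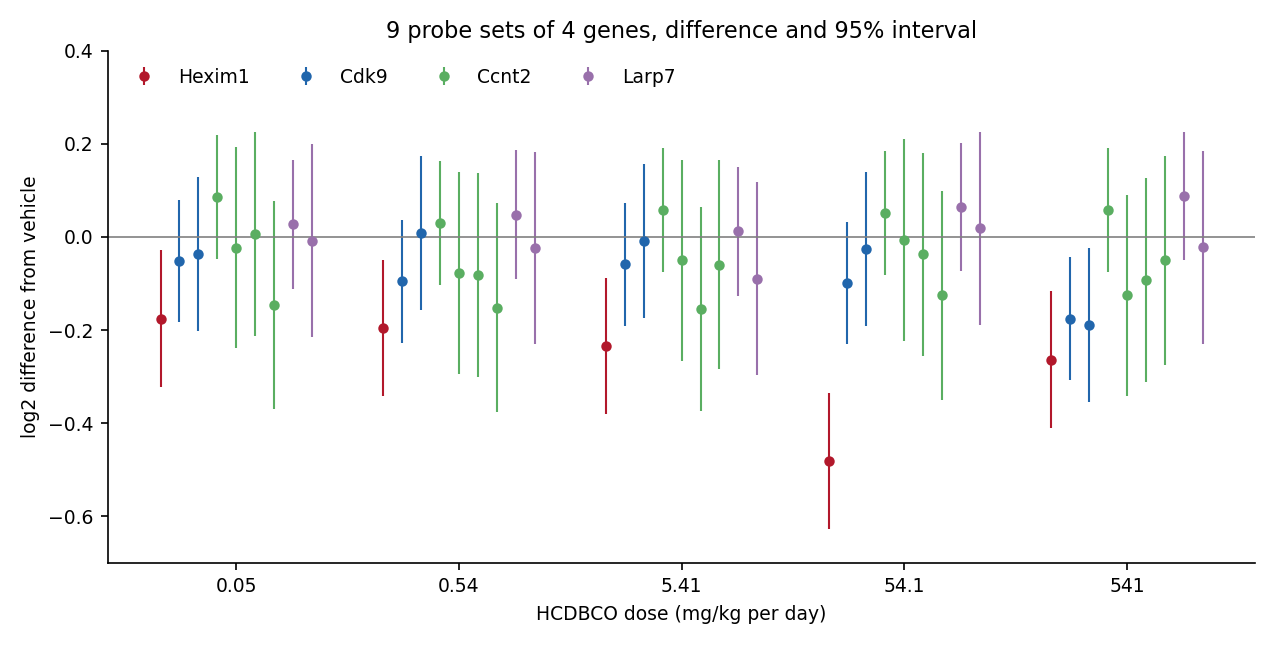
Difference from vehicle (log2) of the 9 probe sets of Hexim1, Cdk9, Ccnt2 and Larp7 at each dose; points are limma estimates and bars their 95% intervals, and all doses share the vehicle samples. Hexim1 ranges from -0.18 to -0.48, and the 8 other probe sets stay between -0.19 and 0.09.

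The other 3 genes gave no call. Of their 8 probe sets none passed limma's FDR of 5% at any of the 5 doses against vehicle, where, in order of dose, 0%, 0%, 0%, 0.0741% and 0.155% of all probe sets passed. At an unadjusted p below 0.05 there were 0 of the 8 at each of the 4 lower doses, where 3.02%, 4.18%, 4.83% and 9.2% of all probe sets reached that level, and 2 at 541 mg/kg, both of Cdk9, where 9.07% did. Limma's F-test over all 6 groups passed 31 probe sets, 0.0999%, and none of these 8, with 0 of the 8 at an unadjusted p below 0.05 (5.99% of all probe sets).

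Cdk9, the catalytic subunit of P-TEFb, had its lowest mean at 541 mg/kg on both of its probe sets. On the brighter one (1372759_at) the vehicle samples were 8.87, 9.10 and 9.34 at the lowest, median and highest (mean 9.12 ± 0.183, SD, n = 6). The 541 mg/kg samples were 8.83, 8.97 and 8.99 (mean 8.95 ± 0.056, SD, n = 6). All 6 lay below the vehicle mean, but only 1 below the lowest vehicle sample, so the groups overlapped. The 54.1 mg/kg samples, at 8.88, 9.06 and 9.11 (mean 9.02 ± 0.098, SD, n = 6), overlapped with both.

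From the lowest to the highest dose the brighter Cdk9 probe set differed from vehicle by -0.05, -0.09, -0.06, -0.10 and -0.18. At 541 mg/kg the 95% interval was -0.31 to -0.04, or 1.13-fold lower at the estimate, with limma's adjusted p = 0.345 and unadjusted p = 0.0104. Against the 3 lowest doses the difference was -0.11 (95% interval -0.22 to 0.00, adjusted p = 0.623). The lowest 541 mg/kg sample, replicate 1 at 8.83, lay apart from the other 5 at 8.94 to 8.99.

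The dimmer Cdk9 probe set (1376491_a_at), at the 16.8 percentile of brightness among all probe sets, gave a vehicle mean of 3.35 ± 0.133 and a 541 mg/kg mean of 3.16 ± 0.135 (SD, n = 6 each). The lowest, median and highest were 3.19, 3.32 and 3.59 in vehicle and 3.01, 3.15 and 3.38 at 541 mg/kg, so the groups overlapped. The difference was -0.19 against vehicle (95% interval -0.35 to -0.02, adjusted p = 0.454) and -0.18 against the 3 lowest doses (adjusted p = 0.426). Below 541 mg/kg it lay between -0.04 and 0.01. Among these 8 probe sets it was the 1 that reached an unadjusted p below 0.05 against the 3 lowest doses, where 8.01% of all probe sets did.

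Ccnt2, the cyclin that pairs with Cdk9 and is measured here by 4 probe sets, stayed within its spread. On the brightest (1399100_at) the vehicle samples were 6.75, 6.86 and 6.97 at the lowest, median and highest (mean 6.86 ± 0.095, SD, n = 6). The 54.1 mg/kg samples were 6.73, 6.93 and 7.00, and those at 541 mg/kg 6.82, 6.90 and 7.02 (mean 6.92 ± 0.091, SD, n = 6). All the groups overlapped. The differences from vehicle were 0.09, 0.03, 0.06, 0.05 and 0.06 in order of dose, and at 541 mg/kg the 95% interval was -0.07 to 0.19 (limma's adjusted p = 0.845).

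The other 3 Ccnt2 probe sets were dimmer and their means went mostly the other way. Probe set 1384214_a_at differed from vehicle by -0.02, -0.08, -0.05, -0.01 and -0.13, probe set 1385697_at by 0.01, -0.08, -0.16, -0.04 and -0.09, and probe set 1390470_at by -0.15, -0.15, -0.06, -0.13 and -0.05. The probe sets of this gene thus disagree in sign, and none of the differences passed the FDR.

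Larp7, which binds and stabilises 7SK RNA, was likewise within its spread. On the brighter probe set (1384256_at) the vehicle samples were 8.97, 9.15 and 9.27 at the lowest, median and highest (mean 9.13 ± 0.124, SD, n = 6). At 54.1 mg/kg they were 9.03, 9.17 and 9.39, and at 541 mg/kg 9.13, 9.19 and 9.30 (mean 9.21 ± 0.07, SD, n = 6). The differences from vehicle were 0.03, 0.05, 0.01, 0.06 and 0.09, with a 95% interval of -0.05 to 0.23 at 541 mg/kg (limma's adjusted p = 0.749). The second probe set (1386006_at) differed by -0.01, -0.02, -0.09, 0.02 and -0.02.

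**Figure D3:**
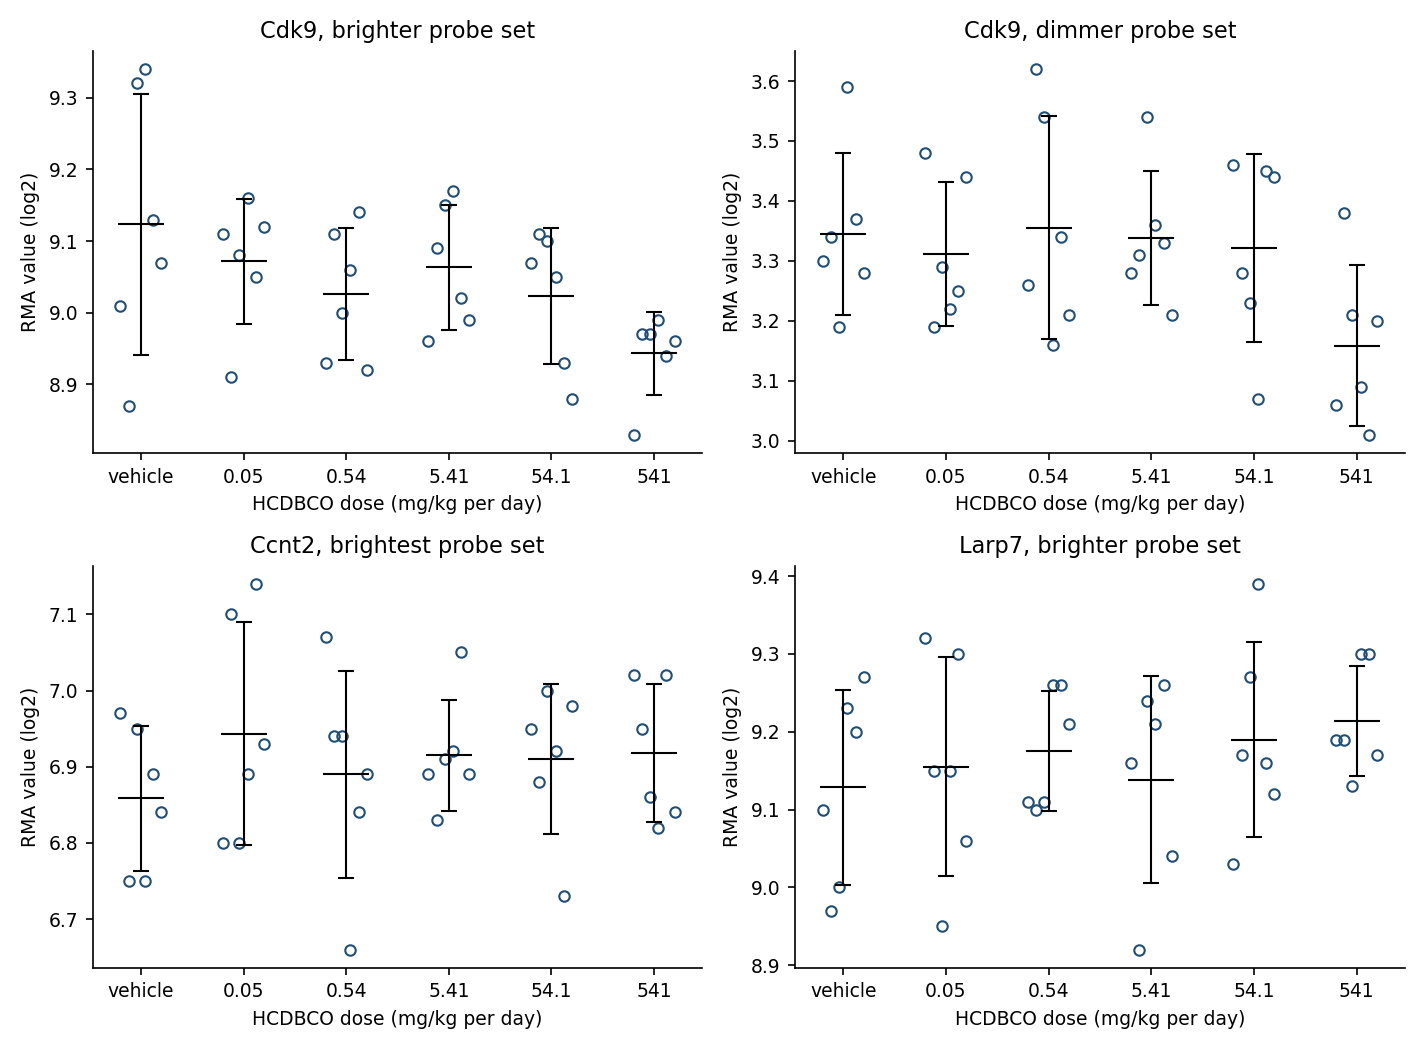
Level (RMA value, log2) of Cdk9 on both of its probe sets, of Ccnt2 on its brightest and of Larp7 on its brighter probe set, in each liver sample by dose; points are samples, the wide bar is the mean of 6 and the error bar 1 SD, and each panel has its own axis. Cdk9 at 541 mg/kg lies at 8.83 to 8.99 on the brighter probe set and overlaps with vehicle at 8.87 to 9.34, and Ccnt2 and Larp7 overlap between all groups.

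The 4 genes were measured with a like precision. The SD within groups was 0.124 for Hexim1, 0.109 for the brighter Cdk9, 0.110 for the brightest Ccnt2 and 0.115 for the brighter Larp7 probe set, against a median of 0.139 over all probe sets. The dimmer probe sets of Ccnt2 and Larp7 were less precise, with SDs of 0.184 to 0.200.

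The members were not shown to vary together between samples of 1 dose. After group means were removed, Hexim1 and Cdk9 gave Pearson's r = 0.32 and Spearman's rho = 0.28 over 36 samples (permutation p = 0.0836 and 0.139, adjusted over 6 pairs 0.276 and 0.296), and r = 0.27 without the 2 samples farthest from the median of Hexim1. Hexim1 and Ccnt2 gave r = -0.31 and rho = -0.31 (permutation p = 0.0918 and 0.0857, adjusted 0.276 and 0.296), and r = -0.20 without 2 samples. None of the 6 pairs passed.

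The other measured parts of the 7SK complex also gave no call. Hexim2, the paralog that can take the place of Hexim1 and its neighbour on the chromosome, was 5.50 ± 0.13 in vehicle, 5.42 ± 0.18 at 54.1 mg/kg and 5.45 ± 0.07 at 541 mg/kg (SD, n = 6 each). Its 3 groups overlapped, and its difference at 541 mg/kg was -0.05 (limma's adjusted p = 0.914). Mepce, which caps 7SK, was 6.61 ± 0.08, 6.42 ± 0.09 and 6.45 ± 0.20 in the same groups, with differences of -0.19 ± 0.10 and -0.16 ± 0.10 (SE; adjusted p = 0.582 and 0.675). Hexim2 and Mepce were picked after their values were seen.

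The wider set held 72 measured genes in 8 lists, 6 of them lists of the elongation machinery, with 9 short-lived transcripts that P-TEFb drives and 2 nuclear receptors that bind Hexim1 in the others. None of the 72 passed limma's FDR in any of the 5 comparisons with vehicle, in the comparison of 541 mg/kg with the 3 lowest doses or in the F-tests over 6 and 4 groups. At an unadjusted p below 0.05 there were 3, 6, 5, 10 and 5 of the 72 in order of dose, 4 against the 3 lowest doses, 5 in the F-test over 6 groups and 1 in that over 4. The shares of all probe sets at that level were 3.02%, 4.18%, 4.83%, 9.2% and 9.07% in order of dose, 8.01% against the 3 lowest doses, and 5.99% and 4.99% in the F-tests. In order of dose the median difference of the 72 was -0.02, -0.04, -0.04, -0.05 and -0.05. A lower mean than vehicle was found for 43, 49, 48, 52 and 54 of them, so most lay lower at every dose. All 5 comparisons share the vehicle samples. Over all probe sets, dim ones included, the median was 0.00 at the 3 lowest doses and 0.01 at 54.1 and 541 mg/kg. In order of dose 49.5%, 47.8%, 47.9%, 45.9% and 46.7% of them had a lower mean.

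The 10 measured partners of 7SK and P-TEFb are proteins that load, release or recruit the kinase. Of these, 8, 8, 9, 10 and 9 had a lower mean than vehicle in order of dose. Their medians were -0.04, -0.07, -0.06, -0.10 and -0.11, and the shares over all probe sets are those given above. Hnrnpa1, which binds 7SK after Hexim1 leaves it, differed by -0.10 and -0.18 ± 0.09 at these doses (SE; limma's adjusted p = 0.563 at 541 mg/kg). Srsf2, a splicing factor also found on 7SK, differed by -0.10 and -0.11 ± 0.07 (adjusted p = 0.639).

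The super elongation complex carries active P-TEFb to genes. Of its 9 measured members, 5, 7, 7, 8 and 8 had a lower mean than vehicle in order of dose. Their medians were -0.03, -0.03, -0.05, -0.05 and -0.14. Aff1, a scaffold of the complex, differed by -0.15, -0.20, -0.27, -0.30 and -0.25 in order of dose (limma's adjusted p = 0.264 at 54.1 and 0.362 at 541 mg/kg). Ell, an elongation factor of the complex, differed by -0.22, -0.10, -0.09, -0.24 and -0.25 in order of dose (SE 0.12, limma's adjusted p = 0.542 at 541 mg/kg). For 541 mg/kg against the 3 lowest doses, which uses no vehicle sample in the difference, 9 of 9 had a lower mean (median -0.10). Over all probe sets 49.8% did. In that comparison Aff1 was at -0.04 and Ell at -0.12 (limma's adjusted p = 0.942 and 0.835).

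The remaining lists of the elongation machinery had medians between -0.07 and 0.04 at 54.1 and 541 mg/kg. The 6 measured genes of DSIF and NELF, which hold the paused polymerase, had a median of 0.04 at 54.1 mg/kg and -0.01 at 541 mg/kg, with Nelfb at 0.06 and 0.09 ± 0.06 and Nelfcd at -0.06 and -0.08 ± 0.06 (SE at 541 mg/kg). For the 16 genes of the PAF1 complex and other elongation factors the medians were -0.02 and -0.03, with Tcea3 at 0.05 and 0.20 ± 0.10 and Elob at -0.05 and -0.07 ± 0.06. The 8 other transcription kinases and their subunits had medians of -0.01 and -0.03, with Mnat1 at 0.18 and 0.09 ± 0.09 and Ccnk at -0.06 and -0.07 ± 0.06. The 12 subunits of RNA polymerase II had medians of -0.05 and -0.07. Polr2a was at -0.05 and -0.09 ± 0.05 and Polr2k at -0.11 and -0.10 ± 0.06. In the order given, 2 of 6, 11 of 16, 5 of 8 and 10 of 12 genes of these lists had a lower mean than vehicle at 54.1 mg/kg. At 541 mg/kg 4 of 6, 12 of 16, 5 of 8 and 9 of 12 did.

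Short-lived transcripts that released P-TEFb is known to drive spread more widely in both directions. Of 9 measured genes, 5 had a lower mean than vehicle at each of the 2 highest doses, with medians of -0.13 at 54.1 and -0.23 at 541 mg/kg. In order of dose the lowest differences were -0.31, -0.49, -0.21, -0.70 and -0.34 and the highest 0.96, 1.17, 1.34, 1.55 and 0.87. At 54.1 mg/kg these were Dusp1 and Egr1, which did not pass limma's FDR. The genes named next are those with the smallest p at 541 mg/kg. Myc, a transcription factor of cell growth, differed by 0.95 at 54.1 mg/kg and 0.87 ± 0.35 at 541 mg/kg (SE; limma's adjusted p = 0.369 and 0.392), and its SD was 0.67 in vehicle and 0.54 at 541 mg/kg. Mcl1, a survival protein, differed by -0.13 and -0.24 ± 0.09 (adjusted p = 0.374 at 541 mg/kg).

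Among nuclear proteins known to bind Hexim1, 2 receptors were measured. The glucocorticoid receptor Nr3c1 was 9.33 ± 0.20 in vehicle and 9.04 ± 0.08 at 541 mg/kg (SD, n = 6 each). In order of dose it differed from vehicle by -0.19, -0.25, -0.29, -0.24 and -0.29 ± 0.08 (SE at 541 mg/kg; limma's adjusted p = 0.327 at 54.1 and 0.176 at 541 mg/kg). Against the 3 lowest doses it differed by -0.05 at 541 mg/kg (adjusted p = 0.918). These values are from its brighter probe set. The other one differed less at 4 of the 5 doses, by -0.08, -0.02, -0.04, -0.23 and -0.11 (adjusted p = 0.842 at 541 mg/kg). The estrogen receptor Esr1 differed by 0.11 at 54.1 mg/kg and -0.03 ± 0.16 at 541 mg/kg (adjusted p = 0.976).

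**Figure D4:**
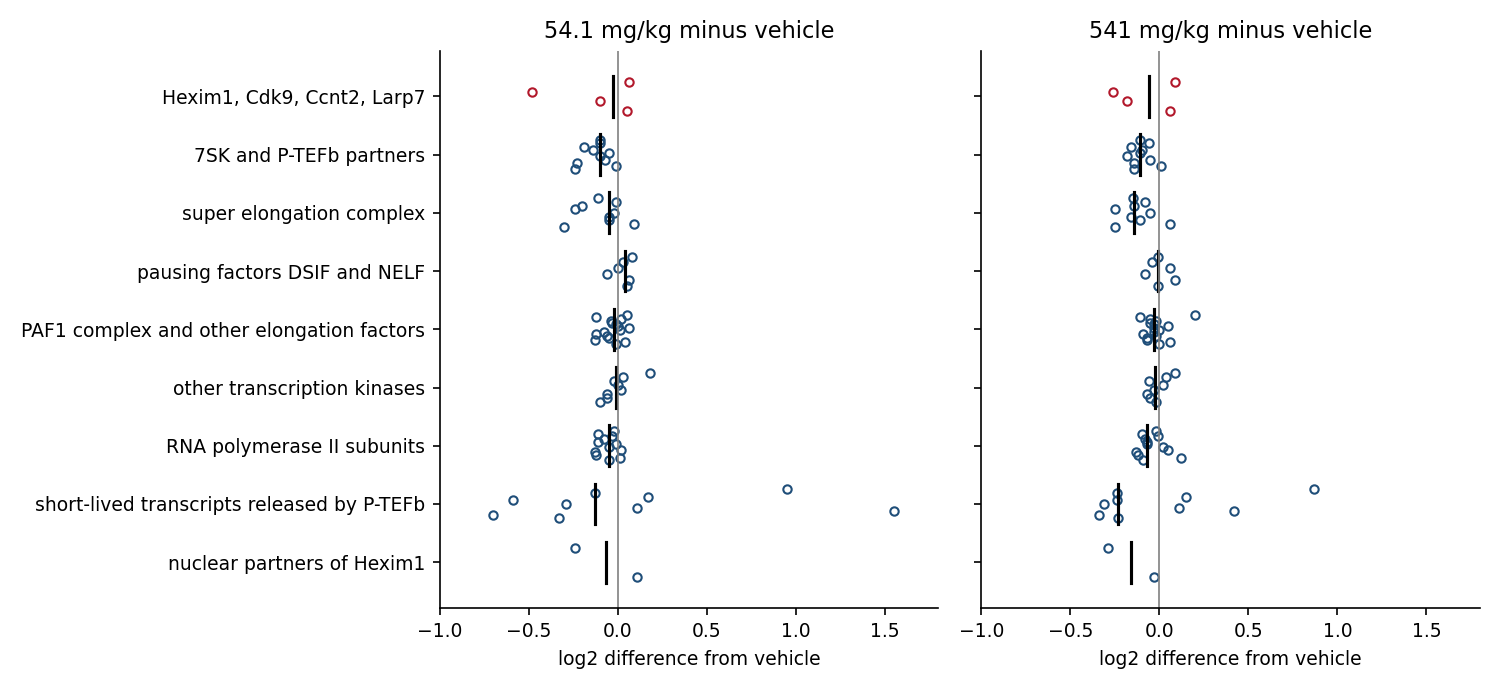
Difference from vehicle (log2) at 54.1 and 541 mg/kg of each measured gene of Hexim1 and its partners (red) and of the 8 lists (blue), 1 point per gene on its brightest probe set; black bars are list medians, and both panels share the vehicle samples. Hexim1 lies at -0.48 and -0.26, the medians of the 8 lists lie between -0.23 and 0.04, and the widest spread is among the short-lived transcripts.

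Cell type markers were followed over the same samples. The mean level of the 7 measured hepatocyte markers was 14.00 in vehicle (samples 13.96 to 14.03), 14.00 at 54.1 mg/kg (13.98 to 14.02) and 13.95 at 541 mg/kg (13.93 to 14.00). That of the 5 endothelial markers was 8.31 in vehicle (8.12 to 8.54), 8.31 at 54.1 mg/kg (8.09 to 8.53) and 8.12 at 541 mg/kg (8.01 to 8.24). At 541 mg/kg Cdk9 had its lowest mean. In order of dose 4, 3, 5, 2 and 5 of these 5 markers had a lower mean than vehicle. Over all probe sets 49.5%, 47.8%, 47.9%, 45.9% and 46.7% did. The part of endothelial cells in the difference of Cdk9 was not tested. At 54.1 mg/kg, where Hexim1 had its lowest mean, the hepatocyte and endothelial means equalled those of vehicle to 2 decimals. The hepatocyte markers lie at or above the 99.8 percentile of brightness, near the top of the array's range. The part of cell types in the difference of Hexim1 was not tested either. The 3 measured Kupffer cell markers averaged 8.29 in vehicle, 8.29 at 54.1 mg/kg and 8.32 at 541 mg/kg, and the 5 stellate cell markers 7.13, 7.06 and 7.07. In the same groups the bile duct cell markers averaged 5.95, 5.99 and 6.09, and the T and B cell markers 4.64, 4.70 and 4.66. The neutrophil markers averaged 4.91, 4.95 and 5.19, and the erythroid cell markers 5.72, 5.82 and 5.80. No marker of any of the 8 cell types passed limma's FDR in these comparisons.

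The genes whose levels ran most like those of Hexim1 were ranked by Pearson's r over the 36 samples, among 12513 probe sets with 1 gene symbol and at least median brightness. The 5 highest were Coq10b (r = 0.81), Tgfbr1 (0.74), Cep44 (0.73), Dnaaf10 (0.72) and Tmx4 (0.71). Coq10b, a binding protein of coenzyme Q, differed from vehicle by -0.20, -0.31, -0.43, -0.64 and -0.39 in order of dose, and Tgfbr1, a receptor of transforming growth factor beta, by -0.10, -0.20, -0.18, -0.35 and -0.30. Each of the 5 had its lowest mean at 54.1 mg/kg, as the rank by r over the same groups favours. These values are a description, since the points share their arrays and doses.

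With group means removed, so that differences between doses play no part, the 5 highest were Rbm15b (r = 0.70), Luc7l (0.68), Coq10b (0.67), Mef2d (0.66) and Scube1 (0.64). Only Coq10b was on both lists. By Spearman's rho in place of Pearson's r, 3 of the first 5 and 4 of the second 5 stayed on their list.

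**Figure D5:**
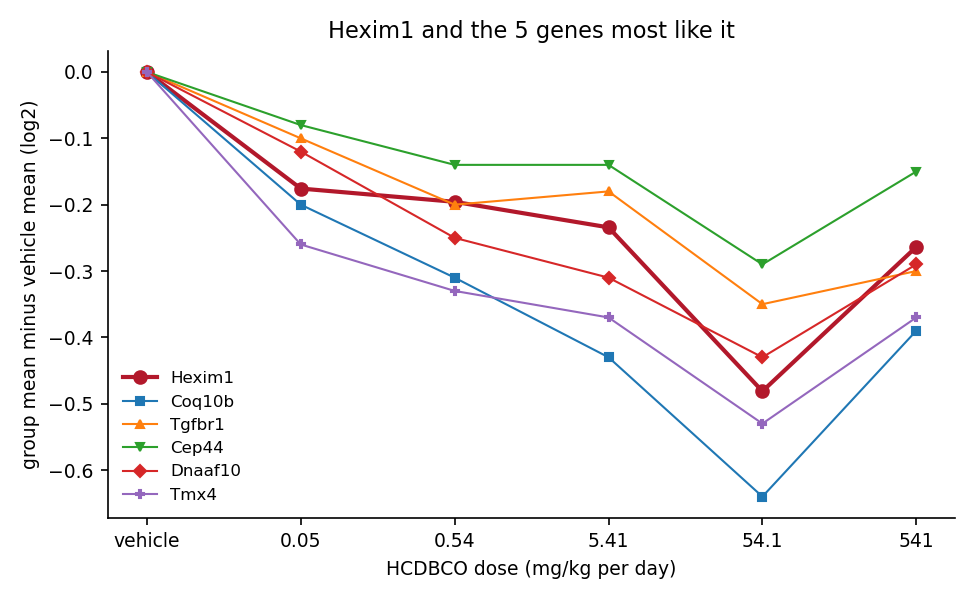
Group mean minus vehicle mean (log2) by dose for Hexim1 and the 5 genes with the highest Pearson's r to it over the 36 samples; each point is a mean of 6 samples, lines join groups of 1 gene, and all points share the vehicle samples. At 54.1 mg/kg Hexim1 lies at -0.48 and Coq10b at -0.64, and all 6 genes lie closer to vehicle at 541 mg/kg than at 54.1 mg/kg.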

How the data were processed

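Rat liver RNA was measured on 1-colour Affymetrix 3′ arrays, 1 for each of 36 samples. Per the submitters' processing notes, the deposited log2 values were made by the authors with RMA (affy), which corrects background, scales arrays to 1 distribution and summarises probes, so a shift shared by all genes would not show. No depth applies to arrays. Of 31099 probe sets, 57 controls were left out. Genes were named from GEO's platform annotation (20826 probe sets with 1 symbol, 436 with several, 9780 with none), updated through RefSeq (GRCr8).

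A model of 6 group means was fitted to all 36 samples and 31042 probe sets with limma 3.58.1 (R 4.3.3) and adjusted by Benjamini-Hochberg at an FDR of 5%, as R/maanova, named in the design text, was not installed. The fit was tested on simulated data. A difference of 0.25 set at 541 mg/kg was called in 25.3% of cases against vehicle. Against the 3 lowest doses it was called in 41.3%. A change of this size can thus go without a call. Correlations used 100000 permutations within groups in scipy 1.17.1. A gene with several probe sets stands by its brightest. Named genes are all members, the 2 of each list with the smallest p at 541 mg/kg, and 5 most like Hexim1. Members, lists and tests were chosen with earlier results of these data known. The alternatives were brightness filter, groups fitted, centring, array weights, empirical Bayes settings, replicate block and samples left out.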

Additional observations from a re-analysis of the deposited data

Results flagged for a closer look

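In 54 groups of 6 samples, 2 had an extreme sample whose gap to its nearest neighbour, divided by the group's range, was above Dixon's critical value of 0.625. Chance gives this in about 1 in 20 groups. Cdk9 (brighter probe set) at 541 mg/kg was lowest in replicate 1 at 8.83, with the others at 8.94 to 8.99. Ccnt2 (probe set 1384214_a_at) in vehicle was lowest in replicate 4 at 5.45, with the others at 5.83 to 6.03.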

How the results depend on the processing

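Hexim1 kept its sign in all fits tried. Its differences from vehicle use samples of the choice, so a kept sign there is no evidence for the fall. When each sample was left out in turn, its difference from vehicle ranged from -0.22 to -0.13 at 0.05 mg/kg, -0.22 to -0.16 at 0.54, -0.28 to -0.20 at 5.41, -0.51 to -0.44 at 54.1 and -0.29 to -0.23 at 541 mg/kg (limma's adjusted p 0.123 to 0.312), and from -0.09 to -0.05 for 541 mg/kg against the 3 lowest doses. At 541 mg/kg the adjusted p over the other settings lay between 0.0808 and 0.177. The count of called members other than Hexim1 stayed at 0 in every alternative.

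Signs turned only in values short of the FDR and near 0. For Cdk9 1376491_a_at, median centring gave -0.01 at 0.54 mg/kg against 0.01, and array weights gave 0.00 at 5.41 mg/kg against -0.01. For Ccnt2 1384214_a_at, array weights gave 0.05 at 54.1 mg/kg against -0.01. The correlation of Hexim1 with Larp7 was -0.06 with group means kept and 0.14 with them removed.

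With single samples left out, the differences that crossed 0 at 0.05 mg/kg ranged from -0.07 to 0.01 (Cdk9 1376491_a_at), -0.10 to 0.01 (Ccnt2 1384214_a_at), -0.05 to 0.06 (Ccnt2 1385697_at), -0.01 to 0.07 (Larp7 1384256_at) and -0.07 to 0.04 (Larp7 1386006_at). At 0.54 mg/kg they ranged from -0.04 to 0.06 (Cdk9 1376491_a_at), -0.01 to 0.07 (Ccnt2 1399100_at) and -0.08 to 0.03 (Larp7 1386006_at). At 5.41 mg/kg they ranged from -0.05 to 0.04 (Cdk9 1376491_a_at) and -0.02 to 0.05 (Larp7 1384256_at). At 54.1 mg/kg they ranged from -0.06 to 0.02 (Cdk9 1376491_a_at), -0.09 to 0.09 (Ccnt2 1384214_a_at), -0.08 to 0.02 (Ccnt2 1385697_at) and -0.03 to 0.07 (Larp7 1386006_at). At 541 mg/kg they ranged from -0.08 to 0.00 (Ccnt2 1390470_at) and -0.07 to 0.01 (Larp7 1386006_at). For 541 mg/kg against the 3 lowest doses they ranged from -0.06 to 0.01 (Ccnt2 1385697_at), -0.02 to 0.02 (Ccnt2 1399100_at) and -0.01 to 0.05 (Larp7 1386006_at). The cause was not tested.

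Counts over all probe sets moved more. At 54.1 mg/kg 23 passed, against 37 with the brightness filter, 64 with array weights, 43 with only the 2 groups fitted, and from 5 (without vehicle replicate 1) to 36 (without vehicle replicate 2) with a sample left out. At 541 mg/kg 48 passed, against 83, 80, 31 and 18 (without replicate 4 of that dose) to 63 in the same order. For 541 mg/kg against the 3 lowest doses 84 passed, against 134 with the filter, 46 with only those groups fitted and 36 (without 541 mg/kg replicate 1) to 107 with a sample left out. For 54.1 mg/kg against the 3 lowest doses 5 passed, against 9 with the filter, 13 with array weights and 5 to 10 with a sample left out. In the F-test over 6 groups 31 passed, against 53 with array weights and 17 to 41 with a sample left out, and in that over 4 groups 27 passed, against 11 (without 541 mg/kg replicate 6) to 33 with a sample left out.

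The replicate numbers did not pair the samples: samples of the same number in 2 groups had a median correlation of deviations of 0.012, and 32 of 90 such pairs exceeded 0.1. With the replicate block Hexim1 was at -0.48 at 54.1 mg/kg, -0.26 at 541 mg/kg (adjusted p = 0.167) and -0.06 against the 3 lowest doses (adjusted p = 0.855), and no other member passed. Dim probe sets have the least signal over background, and 3 of the 9 lie below the median brightness of the array.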

Other observations

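Probe sets of 1 gene did not track each other equally well between samples, which bears on how far each can stand for its gene. After group means were removed, the 2 brightest Ccnt2 probe sets gave r = 0.63 and rho = 0.59 over 36 samples (permutation p adjusted over 8 pairs 0.0004 and 0.0032; r = 0.61 without 2 samples). The 2 Larp7 probe sets gave r = 0.48 and rho = 0.49 (adjusted permutation p = 0.0393 and 0.0289; r = 0.47 without 2 samples). The 2 Cdk9 probe sets gave r = 0.22 and rho = 0.21 (adjusted permutation p = 0.244 and 0.243). This family of pairs was added after the data were seen.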
